A study of Mus musculus with 16 samples.

Results

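The interleukin-1 family genes of the mouse tail disc were followed here through disc injury, with the agonists set against the antagonist and the decoy receptor. The 9 genes were taken by gene name from a table of 49315 genes: the agonists Il1a, Il1b, Il33 and Il18, the receptor antagonist Il1rn, the decoy receptor Il1r2, and the receptor chains Il1r1, Il1rap and Il1rl1. Each name matched 1 row, and all 9 genes reached 1 TPM in at least 3 libraries, the level required for testing, as did 24188 genes in all. The libraries came from bulk RNA sequencing of the intervertebral discs of 16 mice, and each combined the 4 tail discs of 1 mouse. The groups were wild-type mice with intact discs (3 mice), wild-type mice with injured discs (4 mice), Adam8EQ mutants with intact discs (4 mice) and Adam8EQ mutants with injured discs (5 mice). ADAM8 is a metalloprotease of the cell surface, and what the EQ allele changes in it is not described in the labels. DBA, an inbred strain, is named in the series title as the strain compared. The kind of injury, the time after it and the age of the mice are not given in the sources used here.

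Interleukin-1 alpha and beta bind the receptor IL1R1, which then recruits the accessory chain IL1RAP and signals through MYD88 and the IRAK kinases to NF-kappaB and the MAP kinases. The receptor antagonist, encoded by Il1rn, occupies IL1R1 without recruiting the accessory chain, and IL1R2 binds the agonists but lacks a signalling domain. Interleukin-33 uses a receptor of its own, ST2, the product of Il1rl1, with the same accessory chain, and interleukin-18 uses IL18R1 and IL18RAP and is held back by the binding protein IL18BP. Interleukin-1 beta and interleukin-18 are made as precursors that caspase-1 cleaves, whereas interleukin-1 alpha and interleukin-33 are active on release from damaged cells. In the disc, interleukin-1 is known as an inducer of proteases that degrade aggrecan and collagen.

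Levels are TPM, in which reads are scaled by gene length and library total. A change is the difference between group means of log2(TPM + 1), and for genes with low levels this scale gives too small a change. The reads implied by the TPM values were 10195211 to 24858144 per library, with a median of 13309411. Adam8 was at 0.956 to 2.97 TPM in the 7 intact libraries, at 3.52 to 66.3 TPM in injured wild-type mice and at 16.2 to 264.1 TPM in injured mutants, and these levels do not show whether the allele is mutant. Genes of the disc matrix (Acan, Col2a1, Sox9, Comp, Col9a1 and Chad) summed to 24049 TPM or more in every intact library and to 5101 TPM or more in every injured one. Notochordal and nucleus pulposus genes (7 measured) summed to 7024 to 15815 TPM in intact and 582.0 to 11134 TPM in injured libraries, with Shh at 0.48 TPM or less. The injured mice of each genotype were uneven: wild-type mice 1 and 2 stood close to the intact mice for most of the genes below, and mutant mouse 2 stood far above the others for Il1b, Il1rn and Il1r2.

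On GRCm38 the family lies in clusters. Il1r2 (chr1:40074079-40125231), Il1r1 (chr1:40225080-40317257) and Il1rl1 (chr1:40429570-40465415) follow each other on the plus strand of chromosome 1. Il1a (chr2:129299610-129309972) and Il1b (chr2:129364570-129371139) are neighbours on the minus strand of chromosome 2, and Il1rn (chr2:24336853-24351494) is on the plus strand of the same chromosome. Il1rap is at chr16:26581704-26730117, Il33 at chr19:29925114-29960718 and Il18 at chr9:50554827-50581840, all on the plus strand. All 9 are annotated as protein coding. Use of strand in counting is not stated, and 222 of 1974 exonic bases of Il1a lie opposite exons of Gm14023, which was at 1.72 to 9.36 TPM, so reads of this pair cannot be told apart there. The corresponding overlaps were 25 of 1907 exonic bases for Il1b with Il1bos and 552 of 11360 for Il1rap with Gm20319. The table has 1 value per gene, so secreted and intracellular antagonist, and membrane and soluble ST2, are summed.

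Promoter windows of 4 members are shown because Il1b, Il1rn and Il1r2 rose together in injured mutants while Il33 fell. Each is the 250 bases before a RefSeq transcription start on GRCm38.p6, written 5′ to 3′ on the gene's strand. The reference strain is C57BL/6J, not DBA, so the letters of these mice may differ. Capitals mark matches to the motifs searched. The table has 3 windows for Il1rn and 2 for Il33. The one shown was chosen after its matches were seen: for Il1rn it is the only one of the 3 with a match, and for Il33 it is the one with 2 matches, the other having 1. The windows are Il1b at chr2:129371140-129371389 on the minus strand, Il1rn at chr2:24336610-24336859 on the plus strand, Il1r2 at chr1:40085843-40086092 on the plus strand and Il33 at chr19:29945540-29945789 on the plus strand.
Il1b: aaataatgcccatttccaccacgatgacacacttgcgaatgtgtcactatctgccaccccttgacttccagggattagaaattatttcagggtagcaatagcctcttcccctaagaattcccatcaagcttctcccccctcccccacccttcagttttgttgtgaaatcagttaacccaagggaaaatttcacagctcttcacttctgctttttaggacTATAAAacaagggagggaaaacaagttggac
Il1rn: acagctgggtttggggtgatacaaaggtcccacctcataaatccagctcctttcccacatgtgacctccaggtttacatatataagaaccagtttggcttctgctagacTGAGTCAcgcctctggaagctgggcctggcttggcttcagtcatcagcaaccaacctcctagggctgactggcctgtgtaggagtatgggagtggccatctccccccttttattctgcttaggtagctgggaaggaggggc
Il1r2: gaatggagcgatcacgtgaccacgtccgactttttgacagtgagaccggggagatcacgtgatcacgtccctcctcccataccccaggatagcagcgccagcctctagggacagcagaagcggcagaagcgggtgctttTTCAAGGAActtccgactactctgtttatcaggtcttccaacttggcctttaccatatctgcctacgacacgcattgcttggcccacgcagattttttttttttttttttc
Il33: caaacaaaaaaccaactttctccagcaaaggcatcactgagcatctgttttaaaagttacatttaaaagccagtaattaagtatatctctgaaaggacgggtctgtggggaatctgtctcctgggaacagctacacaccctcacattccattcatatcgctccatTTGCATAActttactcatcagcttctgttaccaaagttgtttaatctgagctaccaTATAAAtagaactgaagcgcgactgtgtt

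In these windows Il1b held a TATA box (TATAAA) 31 to 26 bases before its start, and Il33 held one 29 to 24 bases before. Il1rn held an AP-1 motif (TGANTCA) 141 to 135 bases before its start, Il1r2 a STAT motif (TTCNNNGAA) 111 to 103 bases before, and Il33 a C/EBP motif (TTGCNNAA) 85 to 78 bases before. No match overlapped another in the 4 windows. Over both strands of all 32851 windows of the table, the TATA box was found in 12.4%, the AP-1 motif in 6.75%, the STAT motif in 7.02% and the C/EBP motif in 9.56%. Among the 14 windows of the 9 genes, some of which overlap, the TATA box was in 5, the C/EBP motif in 3 and the AP-1 motif in 2. The PU.1 motif (GAGGAA) was in 1 of the 14, that of Il1a, against 23.3% of all windows. The NF-kappaB consensus was in 1, a window of Il1r1, against 3.9%, and the interferon response element was in 0, against 2.98%. A match is a description of these letters and not a measured binding site, and enhancers outside the windows were not searched.

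Il1b, which encodes the inducible agonist, was low in all intact discs and high in most injured ones. It stood at 1.60, 2.47 and 2.24 TPM in intact wild-type mice 1 to 3 and at 2.55, 1.81, 1.24 and 2.60 TPM in intact mutants 1 to 4. Injured wild-type mice 1 to 4 had 3.52, 3.69, 43.1 and 42.1 TPM. Injured mutants 1 to 5 had 24.8, 310.7, 19.7, 32.5 and 2.96 TPM. Within each genotype every injured mouse was above every intact mouse, but wild-type mice 1 and 2 and mutant 5 only narrowly. In mutants Il1b rose by 3.30 ± 1.08 (SE) on the log2 scale with injury (limma, adjusted p = 0.0202). In the wild type the change was 2.2 ± 1.23 (adjusted p = 0.322).

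Il1a, the agonist that acts on release from dying cells, moved little. Intact wild-type mice had 3.27, 3.34 and 2.95 TPM and intact mutants 2.25, 2.87, 4.19 and 4.08 TPM. In injured wild-type mice it was at 5.84, 4.69, 3.97 and 6.79 TPM, all above their intact group. In injured mutants it ranged more widely, with 4.02, 9.09, 1.71, 8.29 and 2.22 TPM, and the groups overlapped. The change was 0.31 ± 0.37 in mutants (adjusted p = 0.541) and 0.57 ± 0.42 in the wild type (adjusted p = 0.463). These levels rest on 11 to 61 implied reads per library, and part of them may belong to the gene opposite. In intact discs Il1b was below Il1a in 6 of 7 mice, at 0.296 to 1.13 times its level. In injured discs the ratio was 0.604, 0.787, 10.9 and 6.19 in the wild type and 6.17, 34.2, 11.6, 3.92 and 1.33 in mutants.

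The other agonists went the opposite way. Il33, which encodes a nuclear alarmin of barrier and stromal cells, was at 65.1, 92.6 and 103.6 TPM in intact wild-type mice and 121.5, 118.1, 139.1 and 88.9 TPM in intact mutants. After injury it was at 63.7, 55.8, 38.3 and 48.0 TPM in the wild type and at 21.5, 34.8, 21.1, 40.4 and 49.7 TPM in mutants. The injured and intact groups did not overlap in either genotype. Il33 fell by 1.83 ± 0.27 on the log2 scale in mutants (adjusted p = 0.000467), the smallest adjusted p of the 9 genes. In the wild type its change was -0.75 ± 0.30 (adjusted p = 0.218).

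Il18, an agonist that many resting cells store as a precursor, fell in mutants. Intact mice had 57.6, 38.4 and 56.8 TPM in the wild type and 33.0, 52.2, 62.2 and 57.4 TPM in mutants. Injured mutants had 17.7, 24.5, 14.0, 25.7 and 19.8 TPM, each below every intact mutant. Injured wild-type mice had 61.2, 52.4, 22.5 and 44.4 TPM, and only mouse 3 lay below its intact group. The fall in mutants was by 1.28 ± 0.29 on the log2 scale (adjusted p = 0.00371), and the change in the wild type was -0.24 ± 0.33 (adjusted p = 0.715).

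These opposite movements changed the makeup of the agonist transcripts. Il33 and Il18 together made up 95.6% to 97.4% of the summed TPM of the 4 agonists in the 7 intact mice. In injured wild-type mice the share was 93.0%, 92.8%, 56.4% and 65.4%, and in injured mutants 57.7%, 15.6%, 62.0%, 61.9% and 93.1%. Wild-type mice 1 and 2 and mutant 5, the injured mice with the least Il1b, kept shares above 92%. In mutant 2 alone did Il1b exceed Il33 and Il18 together.

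**Figure D1:**
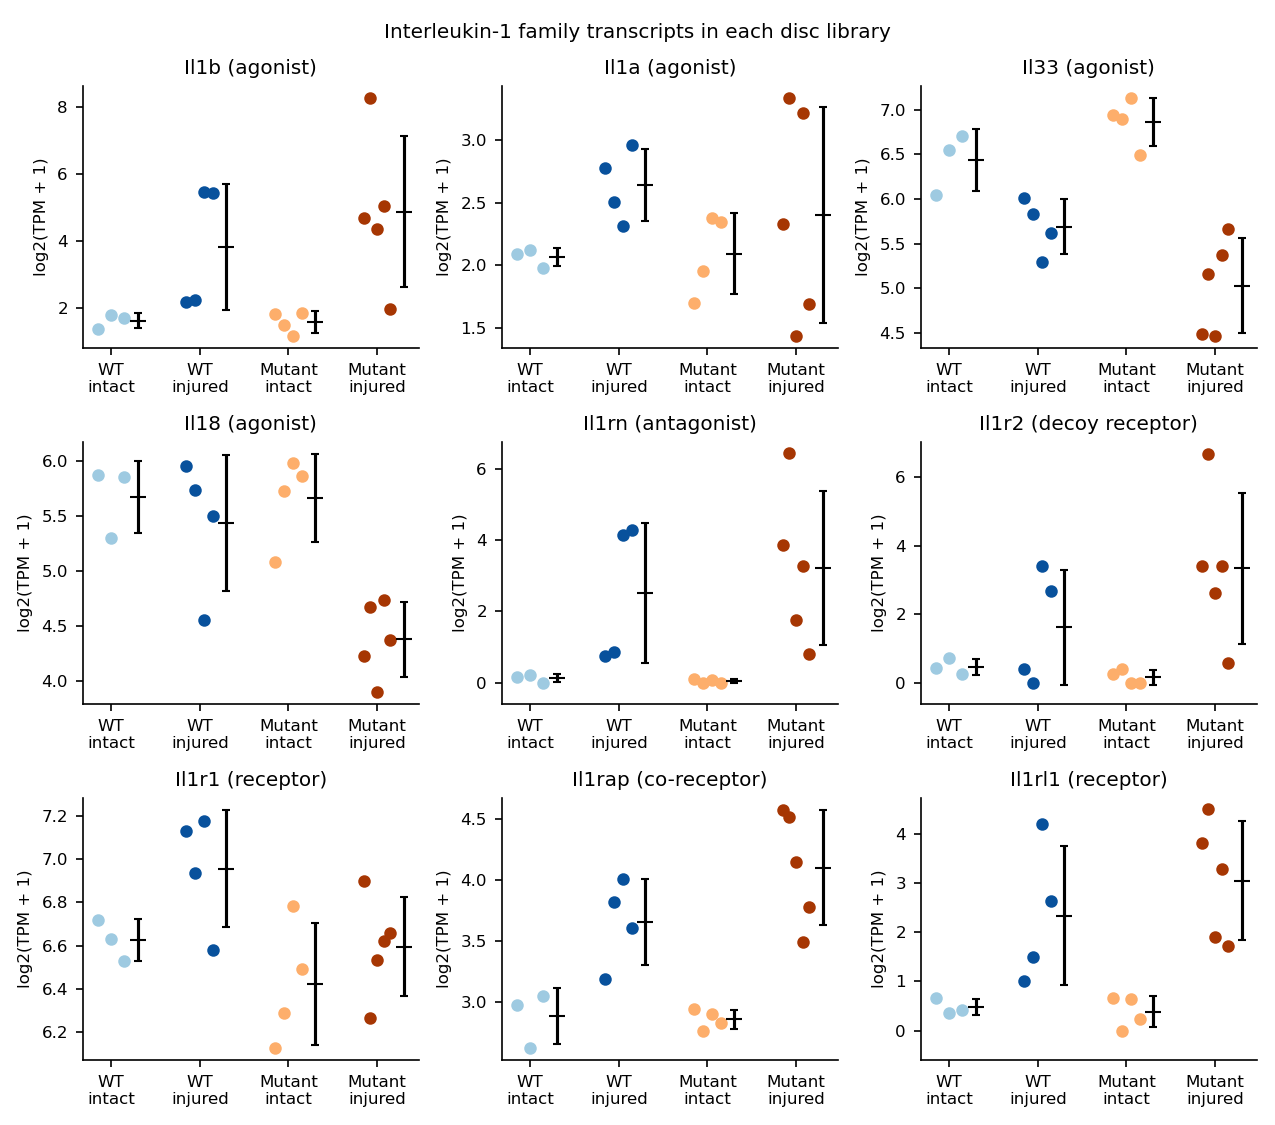
Levels of the 9 genes as log2(TPM + 1) in each of the 16 libraries (points), by group, with the mean and SD of each group as a bar beside them. Il1b, Il1rn, Il1r2 and Il1rl1 are near the bottom in all intact mice and spread widely among injured mice, whereas Il33 is lower in every injured mouse than in the intact mice of its genotype.

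The antagonist Il1rn was near the detection limit in intact discs. Intact wild-type mice had 0.123, 0.170 and 0 TPM and intact mutants 0.0731, 0, 0.0534 and 0 TPM, which is 0 to 3 implied reads per library. Injured wild-type mice had 0.694, 0.803, 16.5 and 18.4 TPM, and injured mutants had 13.7, 85.6, 2.38, 8.65 and 0.736 TPM. Every injured mouse was above every intact mouse. Il1rn rose by 3.18 ± 1.07 in mutants (adjusted p = 0.023), and its change in the wild type was 2.37 ± 1.22 (adjusted p = 0.29). The call in mutants was lost without intact mutant 2 or 4 (adjusted p = 0.0528 and 0.0503), with the change still at 3.17. The size depends on the scale at such low levels: with a pseudocount of 0.1 the changes were 5.85 in mutants and 4.41 in the wild type, and with voom 7.15 and 5.24.

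The decoy receptor Il1r2 was also under 1 TPM in intact discs, at 0.356, 0.659 and 0.203 TPM in the wild type and 0.212, 0.330, 0 and 0 TPM in mutants. In injured wild-type mice it was at 0.336, 0, 9.63 and 5.42 TPM. In injured mutants it was at 9.68, 101.0, 5.13, 9.67 and 0.493 TPM. The mutant groups did not overlap, while wild-type mice 1 and 2 lay within or below their intact range. Il1r2 rose by 3.17 ± 1.02 in mutants (adjusted p = 0.0193), and the change in the wild type was 1.15 ± 1.16 (adjusted p = 0.586). In mutants it was 5.36 with a pseudocount of 0.1 and 5.51 with voom. No exonic bases are shared between Il1r2 and the genes that overlap its span.

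Set against Il1a and Il1b, the antagonist transcript Il1rn took a larger part after injury. Il1rn amounted to 0% to 2.93% of the summed TPM of Il1a and Il1b in the 7 intact mice. It amounted to 7.41%, 9.58%, 35.1% and 37.7% in injured wild-type mice and to 47.5%, 26.8%, 11.1%, 21.2% and 14.2% in injured mutants, all above the intact mice. Agonist transcripts thus still outnumbered antagonist transcripts in every library. Il1rn did not follow Il1b in proportion: mutant 2 had the most Il1b, but its percentage was below those of mutant 1 and of wild-type mice 3 and 4.

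Il1r2 amounted to 0% to 0.673% of the TPM of Il1r1 in intact mice. In injured wild-type mice it amounted to 0.241%, 0%, 6.70% and 5.72%, and in injured mutants to 8.19%, 132.9%, 5.60%, 9.93% and 0.493%. Mutant 2 was the only library in which decoy transcripts outnumbered those of the signalling receptor. The 3 injured mice with low Il1b stayed within the intact range. These percentages describe RNA, and the secreted and membrane-bound proteins were not measured.

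**Figure D2:**
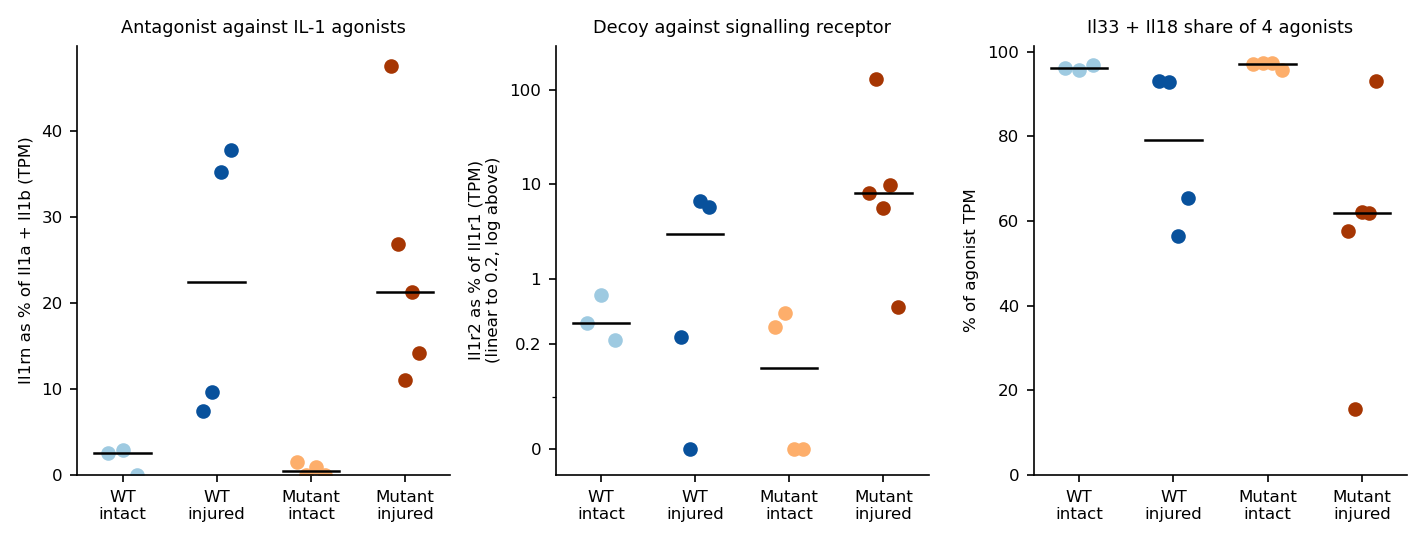
Left, Il1rn as a percentage of Il1a plus Il1b. Middle, Il1r2 as a percentage of Il1r1, on an axis that is linear to 0.2 and logarithmic above. Right, Il33 plus Il18 as a percentage of the 4 agonists. All are computed from TPM, points are mice and lines are group medians. The injured mice spread from the intact level outward, and the highest decoy percentage, 132.9%, is that of mutant 2.

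**Figure D3:**
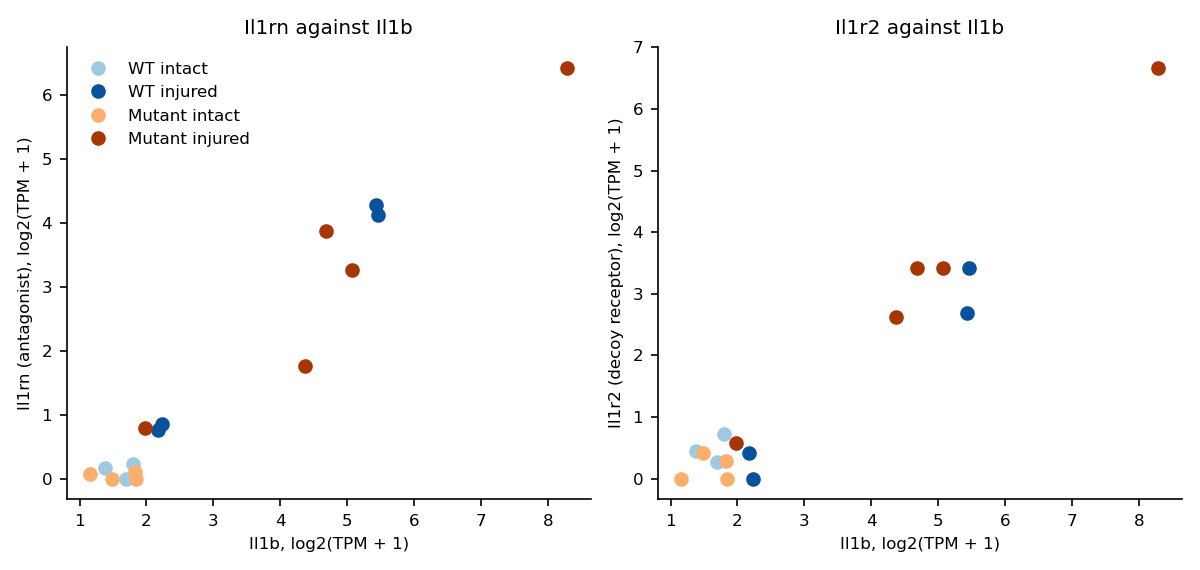
Il1rn (left) and Il1r2 (right) against Il1b, all as log2(TPM + 1), with 1 point per library colored by group. Intact mice of both genotypes sit together at the lower left, wild-type mice 3 and 4 lie among the injured mutants, and mutant 2 is at the upper right with 310.7 TPM of Il1b.

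Over the 9 injured mice the inducible members went together. As a description, Pearson's r of log2(TPM + 1) was 0.97 between Il1b and Il1rn, 0.98 between Il1b and Il1r2 and 0.94 between Il1rn and Il1r2. It was 0.50 between Il1b and Il1a and -0.45 between Il1b and Il33. Il33 and Il18 had an r of 0.83 with each other. These points share libraries, and mutant 2 extends the range of the first 3 pairs.

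Il1r1, the signalling receptor, was abundant throughout and was not called in either genotype. It was at 104.4, 97.9 and 91.3 TPM in intact and 139.2, 121.4, 143.7 and 94.7 TPM in injured wild-type mice. Mutants had 68.9, 77.1, 109.0 and 88.9 TPM when intact and 118.2, 76.0, 91.6, 97.4 and 99.9971 TPM when injured. Intact and injured mice overlapped in both genotypes. The change was 0.17 ± 0.16 in mutants (adjusted p = 0.419) and 0.33 ± 0.18 in the wild type (adjusted p = 0.339).

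Il1rap, the accessory chain shared by the receptors for interleukin-1 and interleukin-33, rose in mutants. It was at 6.87, 5.15 and 7.27 TPM in intact wild-type mice and at 6.66, 5.79, 6.48 and 6.08 TPM in intact mutants. Injured wild-type mice had 8.09, 13.1, 15.1 and 11.2 TPM and injured mutants 22.8, 22.0, 16.7, 10.2 and 12.7 TPM. Every injured mouse was above every intact mouse, including wild-type mice 1 and 2 and mutant 5. The rise in mutants was 1.25 ± 0.23 (adjusted p = 0.00162), and the change in the wild type was 0.77 ± 0.26 (adjusted p = 0.177).

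Il1rl1, which encodes the interleukin-33 receptor ST2, rose in mutants while its ligand fell. It was at 0.591, 0.274 and 0.338 TPM in intact wild-type mice and 0.587, 0, 0.557 and 0.180 TPM in intact mutants. Injured wild-type mice had 1.02, 1.83, 17.5 and 5.23 TPM and injured mutants 13.1, 21.8, 2.75, 8.76 and 2.32 TPM. No injured mouse overlapped the intact mice. The rise in mutants was 2.67 ± 0.68 (adjusted p = 0.00636), and the change in the wild type was 1.86 ± 0.77 (adjusted p = 0.224). With a pseudocount of 0.1 these were 4.40 and 2.96, and with voom 5.16 and 3.21. Ligand TPM exceeded receptor TPM at least 110.1 times in the 6 intact mice with a receptor value above 0. After injury it did so 62.3, 30.6, 2.19 and 9.18 times in the wild type and 1.64, 1.59, 7.67, 4.61 and 21.5 times in mutants.

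By level, Il1r1, Il33 and Il18 led in every intact group, followed by Il1rap, Il1a and Il1b, with Il1r2, Il1rl1 and Il1rn last. The ranges of Il1r1 and Il33 overlapped in both intact groups, as did those of Il1r2 and Il1rl1. In injured wild-type mice Il1r1 stood clear of Il33, the next gene, and all other neighbours in the order overlapped. In injured mutants the order by mean was Il1r1, Il1b, Il33, Il1r2, Il1rn, Il18, Il1rap, Il1rl1 and Il1a, and the ranges of all neighbours overlapped. The mean of Il1b there was 78.1 ± 130.4 TPM (SD, n = 5), so its place rests on mutant 2.

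Counted together, 7 of the 9 genes passed the test for injury in mutants, 5 higher (Il1b, Il1rn, Il1r2, Il1rl1 and Il1rap) and 2 lower (Il33 and Il18). The background was high: 30.8% of all genes tested were called in this comparison, 13.1% as higher and 17.7% as lower. Il1rn, Il1r2 and Il1rl1 were under 1 TPM in every intact mouse and entered the test only through injured libraries. No weight is therefore put on the share of members called higher, on the share higher without overlap or on the median change. The median change of the 9 was 1.25, against -0.08 over all genes tested. TPM values of injured and intact mutants did not overlap for the same 7 genes, against 27.2% of all genes, 12.0% higher and 15.3% lower. Without mutant 2 the same 7 calls stood, with Il1b at 2.45 (adjusted p = 0.0337), Il1rn at 2.38 (adjusted p = 0.0424) and Il1r2 at 2.33 (adjusted p = 0.0297).

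Names of the mutant libraries begin with A8 in injured mice 1 and 2 and intact mice 1 and 2, and with M in the others, and the labels do not say what this marks. With only the libraries named A8, 6 members were called and Il1b rose by 4.83 (adjusted p = 0.041), while Il18, at -0.96 (adjusted p = 0.151), was not called. With only those named M, 1 member was called, Il33, at -1.64 (adjusted p = 0.040), and the values were 2.30 for Il1b (adjusted p = 0.237), 1.90 for Il1rn (adjusted p = 0.306), 2.2 for Il1r2 (adjusted p = 0.216) and 0.94 for Il1rap (adjusted p = 0.083). The direction of all 7 was kept under both. With limma's voom on the implied reads 4 members were called, and Il1b (adjusted p = 0.133), Il1rn (adjusted p = 0.0995) and Il1r2 (adjusted p = 0.0712) were not. Shares of all genes called in these fits are not reported here, so their counts are not read as a result about the members.

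In the wild type 0 of the 9 genes passed the limma test for injury, and 4 had an unadjusted p under 0.05 (Il1rl1, Il1rn, Il1rap and Il33), as did 17.2% of all genes. Only 0.116% of all genes were called there, so the count is near what the background gives. The median change of the 9 was 0.77, against 0.01 over all genes tested. Injured and intact values did not overlap for 6 of the 9, higher for Il1a, Il1b, Il1rn, Il1rap and Il1rl1 and lower for Il33, against 15.6% of all genes, 9.22% higher and 6.34% lower. With the injury effects of both genotypes averaged, 7 of the 9 were called, against 32.5% of all genes, and these were the same 7 genes as in mutants. The background was 15.2% for the 5 higher and 17.3% for the 2 lower. Il1rn, Il1r2 and Il1rl1 entered the test only through injured libraries. No weight is therefore put on the counts of higher members or on the median change, in the wild type or averaged. Averaged changes ran from -1.29 ± 0.20 for Il33 (adjusted p = 0.000521) to 2.78 ± 0.81 for Il1rn (adjusted p = 0.0111). Il1r2, at 2.16 ± 0.78 (adjusted p = 0.0299), lost this call without any 1 of intact wild-type mice 1, 2 and 3, injured wild-type mice 3 and 4 and intact mutant 4. Il1r1, at 0.25 ± 0.12 (adjusted p = 0.11), was called without injured wild-type mouse 4 or intact mutant 3 and with median-of-ratios scaling, at 0.29 to 0.32.

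**Figure D4:**
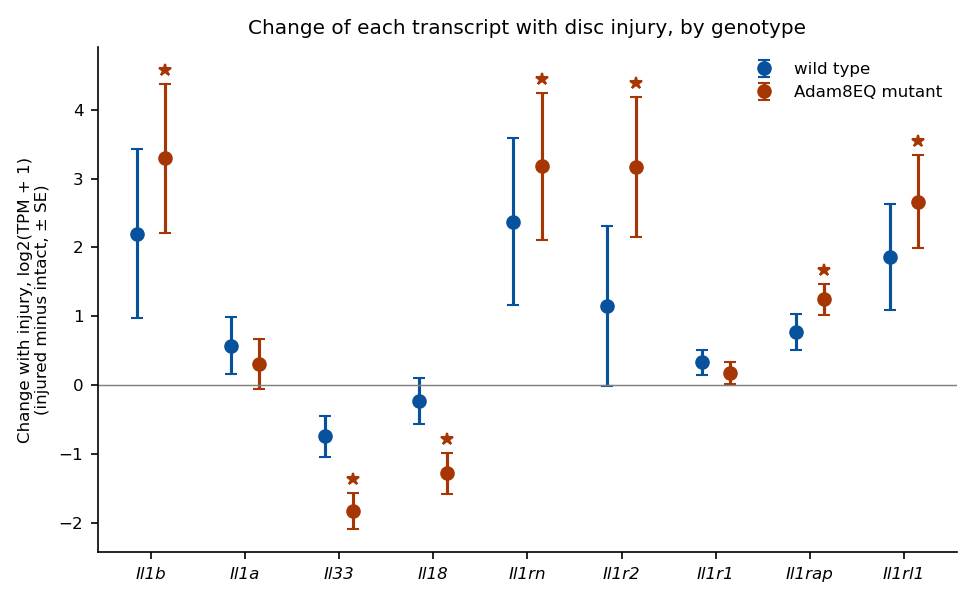
Change of each gene with injury as a difference of mean log2(TPM + 1) ± SE, in the wild type and in Adam8EQ mutants, from 1 limma fit. Stars mark an adjusted p under 0.05: 7 genes in mutants and 0 in the wild type, and the signs are the same in both genotypes for all 9 genes.

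The wild-type and mutant injury effects were then compared with each other. For the injury by genotype interaction 0 of the 9 genes were called by limma, as were 0.0% of all genes, and 2 had an unadjusted p under 0.05, as did 8.18% of all genes. These were Il33, whose change in mutants was lower by 1.09 ± 0.40 (interaction -1.09, adjusted p = 0.506), and Il18, with an interaction of -1.05 ± 0.45 (adjusted p = 0.545). For Il1r2 the interaction was 2.02 ± 1.55 (adjusted p = 0.743) and for Il1rap 0.47 ± 0.35 (adjusted p = 0.744). The calls in mutants and their absence in the wild type are therefore not shown to differ.

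Between injured mutants and injured wild-type mice, 0 of the 9 genes were called by limma, against 0.918% of all genes, and 3 had an unadjusted p under 0.05, as did 20.3% of all genes. Il18 came closest, with 20.3 ± 4.85 TPM in mutants (SD, n = 5) and 45.1 ± 16.6 TPM in the wild type (SD, n = 4). Its difference was -1.06 ± 0.29 (adjusted p = 0.0718), and wild-type mouse 3, at 22.5 TPM, lay among the mutants. Without that mouse Il18 was called, at -1.35 (adjusted p = 0.00706), and with limma's sample weights it was called at -1.22 (adjusted p = 0.024). Il33 differed by -0.66 ± 0.27 (adjusted p = 0.157) and Il1r1 by -0.36 ± 0.16 (adjusted p = 0.203). For Il1b the difference was 1.05 ± 1.08 (adjusted p = 0.574), for Il1rn 0.72 ± 1.07 (adjusted p = 0.715) and for Il1r2 1.71 ± 1.02 (adjusted p = 0.316). Without mutant 2 those of Il1b and Il1r2 were 0.20 and 0.88 and that of Il1rn was -0.08. Values of the groups overlapped for all 9 genes, whereas they did not overlap for 4.77% of all genes. All wild-type library names begin with D, so naming and genotype cannot be told apart.

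In intact discs no difference between the genotypes was called by limma: 0 of the 9 genes passed, 0 had an unadjusted p under 0.05 (3.78% of all genes did), and 0.0165% of all genes were called. The differences ran from -0.31 to 0.43, and all 9 genes overlapped, against 6.18% of all genes that did not.

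Genes that process and release the cytokines were followed as a list of 8. In injured mutants 5 of them rose and 0 fell, against 13.1% of all genes called higher and 17.7% called lower. Caspase-1, encoded by Casp1, rose by 1.57 ± 0.59 (adjusted p = 0.0415), and the inflammasome sensor Nlrp3 rose by 2.85 ± 0.80 (adjusted p = 0.0104). Casp4, a sensor of intracellular lipopolysaccharide, was at 2.46 to 4.12 TPM in all intact mice and at 29.3, 30.0, 16.9, 10.5 and 14.5 TPM in injured mutants, a rise of 2.29 ± 0.40 (adjusted p = 0.001). The DNA sensor Aim2 rose by 2.14 ± 0.50 and the ATP-gated channel P2rx7 by 0.84 ± 0.30. Nlrp3, Aim2 and Nlrc4 were under 1 TPM in every intact mouse and entered the test only through injured libraries. No weight is therefore put on the count of genes that rose. The adaptor Pycard (-0.10) and the pore protein Gsdmd (0.47) were not called, nor was Nlrc4 (0.996, adjusted p = 0.0704). In the wild type 0 of the 8 were called, against 0.116% of all genes.

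Of 11 genes that carry the receptor signal, 4 rose and 1 fell in injured mutants, with a median of 0.20. Over all genes tested, 13.1% were called higher and 17.7% lower. The adaptor Myd88 was at 14.0 to 16.3 TPM in intact mutants and at 55.5, 70.7, 49.1, 51.5 and 44.8 TPM in injured ones, a rise of 1.75 ± 0.25 (adjusted p = 0.00041). Irak3, an inhibitory kinase of the pathway, rose by 1.43 ± 0.33 (adjusted p = 0.00371), Irak4 by 0.63 ± 0.12 and the inhibitor Tollip by 0.40 ± 0.06. Traf6, the ubiquitin ligase below the IRAK kinases, fell by 0.39 ± 0.11 (adjusted p = 0.0184). Members known as activators and as inhibitors were thus both among those that rose.

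Other receptors of the family and the interleukin-18 binding protein formed a list of 7, of which 4 were tested. Of the 4, 2 rose in injured mutants, against 13.1% of all genes called higher. Those that rose were Il18rap, the signalling partner of the interleukin-18 receptor, at 2.36 ± 0.50 (adjusted p = 0.00272), and Il1rl2, the interleukin-36 receptor, at 1.99 ± 0.47 (adjusted p = 0.00472). Il1rl2 was under 1 TPM in every intact mouse, and Il18rap and Il18r1 reached 1 TPM in fewer than 3. All of these entered the test only through injured libraries, so no weight is put on this count. Il18r1 changed by 0.37 (adjusted p = 0.302). Il18bp, the inhibitor of interleukin-18, was steady at 27.2 to 41.7 TPM over all 16 mice and changed by -0.08 ± 0.10 in mutants (adjusted p = 0.632). With Il18 lower, Il18 TPM relative to Il18bp TPM was 0.982 to 1.92 in the 7 intact mice, 1.98, 1.49, 0.708 and 1.29 in injured wild-type mice and 0.535, 0.901, 0.466, 0.766 and 0.473 in injured mutants. Among 5 further ligands in the table, only Il1f9, interleukin-36 gamma, was tested. It was listed at 0 in all 7 intact mice, at 0, 0, 3.66 and 3.05 TPM in injured wild-type mice and at 2.72, 38.0, 0, 0.542 and 0 TPM in injured mutants, and was not called (adjusted p = 0.191 in mutants).

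A list of 16 genes known to be induced by interleukin-1, most of which other inflammatory signals induce too, was also followed. In injured mutants 15 rose, against 13.1% of all genes called higher, with a median of 3.85 over the list. The exception was the aggrecanase Adamts5 at 0.18 (adjusted p = 0.635). Adamts4, Il6 and Saa3 were under 1 TPM in every intact mouse, and Cxcl2 reached 1 TPM in fewer than 3. All of these entered the test only through injured libraries. No weight is therefore put on this count or median. Il6 was at 0 to 0.833 TPM in intact mutants and at 20.9, 17.6, 11.1, 3.19 and 10.6 TPM in injured ones, a rise of 3.07 ± 0.57 (adjusted p = 0.0013). Cxcl1, a neutrophil attractant, rose by 6.59 ± 1.36, the matrix protease Mmp3 by 5.99 ± 1.25 and the nitric oxide synthase Nos2 by 7.43 ± 1.11. In the wild type 1 of the 16 was called, Lcn2, which rose by 3.89 ± 0.55 (adjusted p = 0.00687), and 12 had an unadjusted p under 0.05. Over all genes tested, 0.116% were called there and 17.2% had an unadjusted p under 0.05. Mutant 5 had 2.96 TPM of Il1b, 398 TPM of Nos2 and 10.6 TPM of Il6. Injured wild-type mice 1 and 2 had 3.52 and 3.69 TPM of Il1b, 6.60 and 14.0 TPM of Nos2 and 0.396 and 0.763 TPM of Il6. The relation of these genes to Il1b was not tested. Between genotypes, in injured or intact discs, and for the interaction, 0 genes of these 4 lists were called.

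Leukocyte markers moved with Il1b, Il1rn and Il1r2. The 8 neutrophil genes (S100a8, S100a9, Retnlg, Csf3r, Cxcr2, Ly6g, Mmp8 and Ngp) summed to 1.99 to 8.19 TPM in intact mice, to 3.71, 5.35, 188.3 and 141.4 TPM in injured wild-type mice and to 84.1, 1017, 32.3, 90.4 and 15.4 TPM in injured mutants. Of the 7 tested, 4 rose in mutants, against 13.1% of all genes called higher. Csf3r and Cxcr2 were under 1 TPM in every intact mouse, and S100a8, S100a9 and Mmp8 reached 1 TPM in fewer than 3. All of these entered the test only through injured libraries. No weight is therefore put on this count. Ly6g, a defining neutrophil marker, was at 0 in all intact mice and reached at most 1.56 TPM. The 8 macrophage and monocyte genes (Adgre1, Cd68, Csf1r, Cd14, Itgam, Lyz2, Ccr2 and Cd163) summed to 153.5 to 215.2 TPM in intact mice, to 252.5, 392.3, 3510 and 2330 TPM in injured wild-type mice and to 1983, 7708, 1256, 2343 and 780.7 TPM in injured mutants. Of the 8, 6 rose in mutants, against 13.1% of all genes. Itgam and Ccr2 reached 1 TPM in fewer than 3 intact mice and entered the test only through injured libraries. This count is therefore given no weight either. Most of the highest sums was Lyz2, with 5547 of 7708 TPM in mutant 2 and 2453 of 3510 TPM in injured wild-type mouse 3. Csf1r overlapped, at 41.3 to 68.7 TPM in intact and 40.1 to 142.3 TPM in injured mutants, as did Cd163. Mutant 2 was highest in both sums, in Il1b, in Il1rn and in Il1r2. The part of these cells in the results for the 9 genes was not tested. In bulk tissue, more cells of a type and more RNA per cell cannot be told apart, and the same holds for fewer cells and the lower values of Il33 and Il18.

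Markers of other cell types known to express Il33, Il18 or Il1rl1 were also summed. The 7 epidermal genes, from a tissue rich in Il33 and Il18, summed to 22.0 to 26.0 TPM in intact and 7.97 to 23.0 TPM in injured wild-type mice. In mutants their sums did not overlap, at 18.3 to 26.4 TPM in intact and 12.8 to 15.3 TPM in injured mice. Most of every sum was Krt10, at 7.55 to 22.3 TPM over all 16 mice. Krt5 was at 0.134 TPM or less and Krt14 at 1.51 TPM or less, so the sums follow 1 gene and do not show epidermal cells. Of the 3 tested, 1 was called lower in mutants and 3 with both genotypes averaged, against 17.7% and 17.3% of all genes. Krt1 and Lor were under 1 TPM in every injured mouse and entered the test only through intact libraries. These epidermal counts are therefore given no weight. The 7 mast cell genes, from cells rich in ST2, summed to at most 8.81 TPM apart from injured wild-type mouse 3 at 41.6 TPM, which also had the highest Il1rl1 of its group, and Fcer1a was at 0 throughout. The 7 genes of T cells and type 2 innate lymphoid cells summed to 2.89 to 5.99 TPM in intact and 4.49 to 62.1 TPM in injured mice. Most of the highest sums was Il7r, an interleukin-7 receptor chain, with 58.0 of 62.1 TPM in mutant 2 and 20.1 of 30.9 TPM in injured wild-type mouse 3. The defining T cell markers Cd3e and Cd3d were at 1.03 TPM or less in every library. The 5 endothelial genes summed to 3.95 to 16.8 TPM in intact and 6.77 to 186.9 TPM in injured wild-type mice, and to 2.12 to 9.53 and 10.5 to 62.7 TPM in mutants. None of them was called in mutants (0 of 5 by limma, 3 with an unadjusted p under 0.05, against 42% of all genes). With both genotypes averaged 4 rose, against 15.2% of all genes. Kdr, Tek and Tie1 reached 1 TPM in fewer than 3 intact mice and entered the test only through injured libraries. These endothelial counts are therefore given no weight. Of the 6 nucleus pulposus genes tested, 4 fell in injured mutants, as did 2 of the 6 matrix genes, against 17.7% of all genes called lower. The part of each in the results was not tested.

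**Figure D5:**
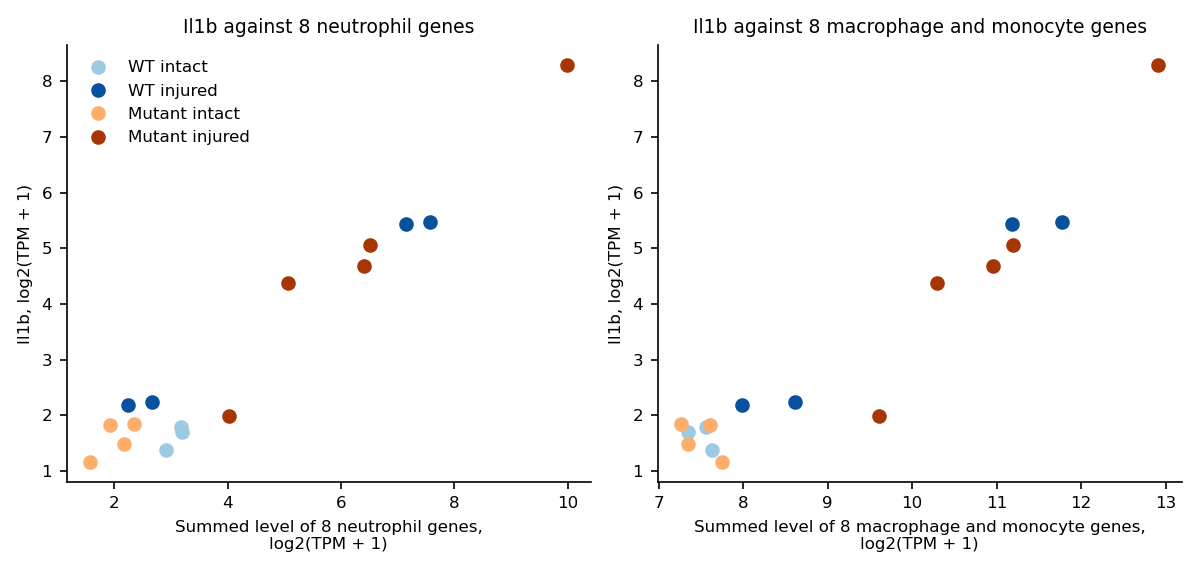
Il1b against the summed level of 8 neutrophil genes (left) and 8 macrophage and monocyte genes (right), all as log2(TPM + 1), 1 point per library. The injured mice with high Il1b are those with high marker sums, up to mutant 2 at 1017 TPM of neutrophil genes and 310.7 TPM of Il1b, and the intact mice form 1 cluster at low values.

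Genes with the most similar pattern were sought over the 9 injured libraries among 11965 genes whose mean there was 5 TPM or more, by Pearson's r of log2(TPM + 1). For Il1b they included Slc11a1 (0.985) and Fpr1 (0.982). For Il1rn they were Slfn4 (0.994), Mmp9 (0.993) and Hcar2 (0.991). For Il1r2 they were Ccrl2 (0.988), Srgn (0.985) and Fpr1 (0.980), so Fpr1, a receptor for bacterial formyl peptides on phagocytes, stood on the lists of both Il1b and Il1r2. For Il1a they were other genes and the values were lower, with Fgd4 (0.935), Aatk (0.933) and Tbc1d9 (0.925). The ranking rests on 9 libraries that share the wide range of injury levels.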

How the data were processed

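Bulk RNA sequencing of 16 disc libraries was deposited as 1 table of TPM values, 1 column per mouse, each summing to 1000000. Per the labels' protocols, Trizol RNA went through ribosomal RNA depletion (QIAGEN FastSelect) and NEBNext Ultra II library preparation, while the molecule field reads polyA RNA. Per the submitters' processing notes, bcl2fastq 2.20 and GRCm38 were used. The aligner, counting method, strand use and annotation are not given in the sources used here. Groups came from the titles, since the genotype field of the wild type is cut short.

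From the deposited TPM, log2(TPM + 1) was tested in R 4.3.3 with limma 3.58.1 (eBayes after lmFit, allowing a mean-variance trend). The 24188 genes tested reached 1 TPM in 3 or more libraries. One fit over all 16 libraries gave each group its mean. Benjamini-Hochberg adjustment covered every gene tested in a comparison, the threshold was 0.05, and SE is the fit's ordinary standard error. The test was tried on simulated data first. Each library is 1 mouse, so p-values measure the spread between mice.

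Depth was approximated from the reads that TPM values imply, using union exon lengths of GENCODE M21. This put 93.7% to 94.4% of values under 20 reads within 0.05 of a whole number. Of the 49315 identifiers, 49056 were found in GENCODE M21. Tools for the other steps were Python 3.11.15 and pandas 2.3.3. Promoter windows came from a RefSeq table, matched by symbol for all 9 genes. Motifs numbered 7, and looser forms of some were looked at and are not reported.

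The 9 genes are always named, genes of the lists may be named with the list counted whole, and similar genes were the 3 with the highest r, leaving out Gm, Rik and identifier-only names. Of these similar genes, 1 is not reported here. Members and lists were chosen with earlier results of these data known. The alternatives changed the pseudocount (to 0.1), the filter (none, or a mean of 5 TPM or more), the scaling (median of ratios, or quantiles), the trend (none), the weights (per sample) and the libraries fitted (the compared groups alone, or each mouse left out), or added mouse number as a replicate block or the library name prefix as a covariate. Fits with only 1 mutant naming and voom on implied reads were added after seeing the data.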

Additional observations from a re-analysis of the deposited data

Results flagged for a closer look

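In 27 groups of 4 or 5 mice tested for a sample far from the others, 3 stood out by Dixon's test, all injured mutant 2. Chance flags about 1 in 20 such groups, and the 3 share a library. Il1b was at 310.7 TPM there (gap over range 0.904, critical value 0.710 for 5 samples), Il1rn at 85.6 TPM (0.847) and Il1r2 at 101.0 TPM (0.909). The same library had the highest summed levels of neutrophil and macrophage genes, 1017 and 7708 TPM, whose part in these values was not tested.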

How the results depend on the processing

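Injury in mutants called 7 members, and 6 to 7 with any 1 mouse left out. It called 1 with only mutants named M and 4 with voom on implied reads. Averaged over genotypes, 7 were called, 6 to 8 with a mouse left out, 4 with mutants named M and 4 with voom. Between genotypes in injured discs 0 were called, 0 to 1 with a mouse left out (Il18 without injured wild-type mouse 3) and 1 with limma's sample weights. The counts of 0 for injury in the wild type, genotype in intact discs and the interaction stood at 0 under every alternative run, leaving out mice included (0 to 0). The share of all genes called under each alternative is not reported here. These counts are therefore not read as a result about the members. The cause of these differences was not tested.

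Signs turned for genes that were not called in the comparison. With mutants named M, the injury change in mutants was -0.25 for Il1a and -0.031 for Il1r1, and the genotype difference in injured discs was -0.017 for Il1b, -0.56 for Il1rn and -0.032 for Il1rl1. With mutants named A8 that of Il1a was 0.19. With a mouse left out it ran from -0.47 to 0.0026 for Il1a (positive without injured mutant 3) and from -0.081 to 1.33 for Il1rn (negative without injured mutant 2). The injury change of Il18 in the wild type ran from -0.42 to 0.059 (positive without injured wild-type mouse 3). No called gene changed sign. Among changes of single genes, 626 values with a mouse left out and 473 under the other alternatives kept sign and call, and 8 and 17 lost the call.

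Mouse numbers recur across groups, but the library names hold a different number for each library. Same-numbered libraries were therefore taken as different mice. Over 21 such pairs the correlation of deviations was -0.217 to 0.151, with 1 over 0.1, which by itself cannot show this. With the replicate block the counts were 7, 0, 7, 0, 0 and 0, as without it. The fit of only the groups compared was not run for the averaged effect and the interaction, which use all groups, and Il1a and Il1rl1 gave no value with the filter at a mean of 5 TPM. Low levels limit Il1rn, Il1r2 and Il1rl1 in intact discs, where single reads move log2 values. No scaling shifted the median of all genes by over 0.1.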
